A study of Mus musculus with 10 samples.

Results

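The Myc, Max and Mxd network was followed in mouse embryonic stem cells (ESCs) depleted of Wapal, a protein that releases cohesin from chromatin, or of Smc3, a core cohesin subunit. The 10 genes were Myc, Mycn, Mycl, Max, Mxd1, Mxd3, Mxd4, Mxi1, Mnt and Mga, out of 18193 genes with a single symbol on the array. They were found as all 27 probe sets whose single gene symbol in the platform annotation is one of these names, among 34945 such probe sets. The family was selected on these data, since it was taken up after Myc had been seen at a lower level in Wapal-depleted cells. Its levels against the control in Wapal depletion are therefore given as a description with no p-value, and nothing is read from how many of them were called. The same holds for Myc in Smc3 depletion, which shares both control arrays, and for Myc between the depletions.

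The cells were CJ9 ESCs, a 129svj derived line, and every group was infected with lentivirus for 48 h in polybrene at 10 µg/mL. ES cell medium with LIF (leukaemia inhibitory factor, a cytokine that maintains mouse ESCs) and puromycin at 4 µg/mL then followed, with 48 h of culture. The study's text places the array samples at 48 h after infection. How the stated times fit together was not worked out. The 5 groups of 2 arrays each were Empty Vector (virus with no hairpin), a pair of hairpins against Wapal (Wapal shRNA1 and Wapal shRNA2) and a pair against Smc3 (Smc3 shRNA1 and Smc3 shRNA2), 10 arrays in all. All groups come from 1 cell line at a single time, as drug-selected infected populations, and the control virus carries no hairpin. The study's methods call both arrays of a group biological replicates, and neither they nor the labels say whether these came from separate infections. The p-values rest on the spread between these arrays alone. The Smc3 samples were entered in GEO as a block apart from the Empty Vector and Wapal samples. The labels do not say whether all arrays were run together. Any difference that goes with this block cannot be told apart from Smc3 depletion.

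Myc proteins bind DNA as dimers with Max at the sequence CACGTG, called the E-box, and activate genes for growth, metabolism and ribosome production. The Mxd proteins, Mxi1 and Mnt also pair with Max, occupy the same sequence and recruit Sin3 corepressors, so that the balance of partners sets the output of the network. Mga, the largest Max partner, carries a T-box as a further DNA-binding domain and holds together a Polycomb complex that keeps germline genes silent in ESCs. In mouse ESCs, Myc is known as a target of LIF and Stat3 signalling and as a support of self-renewal.

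Promoter windows from RefSeq (build GRCm38.p6) reach from 250 bases before to 50 bases after the annotated start, and 9 of the 10 genes have one. The E-box, searched as the letters CACGTG, which read the same on both strands, lay in 3 of these 9 genes and in 8.09% of the 27025 genes with windows (7.15% of 32851 windows). The 3 genes were Max, Mnt and Mxd4, the partner shared by the network and 2 of its repressors. Their windows are printed with that of Mycn, which held no E-box and rose in Smc3 depletion. The sequences run 5′ to 3′ on the gene's strand as the first 260 bases of each window, of which the last 10 follow the start, and capitals mark the E-box. Max lies on the minus strand of chr12:76962239-76962498, Mnt on the plus strand of chr11:74830674-74830933, Mxd4 on the minus strand of chr5:34187701-34187960 and Mycn on the minus strand of chr12:12941827-12942086.
Max: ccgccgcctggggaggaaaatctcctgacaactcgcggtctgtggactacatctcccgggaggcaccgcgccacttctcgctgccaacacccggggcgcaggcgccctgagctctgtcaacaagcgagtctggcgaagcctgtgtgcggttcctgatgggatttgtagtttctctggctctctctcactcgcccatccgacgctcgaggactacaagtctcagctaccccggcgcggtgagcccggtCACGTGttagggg
Mnt: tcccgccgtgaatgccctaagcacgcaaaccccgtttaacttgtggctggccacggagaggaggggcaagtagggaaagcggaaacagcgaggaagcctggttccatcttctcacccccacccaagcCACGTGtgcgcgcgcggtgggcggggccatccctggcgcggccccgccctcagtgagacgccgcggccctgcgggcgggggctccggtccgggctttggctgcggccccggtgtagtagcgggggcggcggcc
Mxd4: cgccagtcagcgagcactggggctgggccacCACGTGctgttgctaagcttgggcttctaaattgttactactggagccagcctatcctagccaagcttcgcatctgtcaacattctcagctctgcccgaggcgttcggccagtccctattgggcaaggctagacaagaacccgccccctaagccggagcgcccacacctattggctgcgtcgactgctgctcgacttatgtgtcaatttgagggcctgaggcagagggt
Mycn: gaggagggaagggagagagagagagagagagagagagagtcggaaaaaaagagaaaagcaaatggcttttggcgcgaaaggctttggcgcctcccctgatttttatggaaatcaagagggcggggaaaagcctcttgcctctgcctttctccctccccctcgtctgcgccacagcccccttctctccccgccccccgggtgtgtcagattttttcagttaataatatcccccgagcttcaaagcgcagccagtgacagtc
The E-box began 3 bases before the start in Max, 123 bases before it in Mnt and 219 bases before it in Mxd4. These are matches of letters, and no binding was measured here.

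Values are log2 of the deposited array intensity, so that a difference of 1 is a doubling, and the brightest probe set over the 10 arrays stands for a gene unless another is named. Levels are compared only within a probe set. Wapl, the mouse symbol for Wapal, read 11.29 and 11.37 in Empty Vector, 9.86 and 9.97 in the Wapal shRNA1 arrays and 7.88 and 7.76 in those of Wapal shRNA2, so the second hairpin left less of the transcript. Smc3 read 10.59 and 10.60 in Empty Vector and between 7.46 and 7.80 in the 4 Smc3 arrays. The arrays also divide in a way the labels do not name: Empty Vector replicate 1, Wapal shRNA1 and Smc3 shRNA2 form one side, and Empty Vector replicate 2, Wapal shRNA2 and Smc3 shRNA1 the other. Across the 45037 probe sets, Empty Vector replicate 2 minus replicate 1 had a correlation of 0.40 with Wapal shRNA2 minus shRNA1 and of 0.31 with Smc3 shRNA1 minus shRNA2. Hairpin comparisons run along this split and cannot be told apart from it. A supplementary table of the study gives Wapal shRNA1 replicate 2 and Wapal shRNA2 replicate 1 each other's names. GEO's labels were used, and under them the Wapl level was alike within each hairpin. Markers of ESCs were bright on every array (Pou5f1 between 12.89 and 13.23), whereas 9 of 10 fibroblast markers and 10 of 11 lineage markers averaged under 6, the dim range that held between 59.6% and 60.1% of probe sets on each array.

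Among the Myc paralogs, Myc itself was lower in all 8 depleted arrays, Mycn was higher with Smc3 depletion, and Mycl lay on opposite sides of the control with the 2 Smc3 hairpins. Myc, the founding member of the family, is read by a single probe set. It measured 8.10 and 7.74 in Empty Vector, 6.31 and 6.77 with Wapal shRNA1, 6.44 and 6.45 with Wapal shRNA2, 5.97 and 5.76 in the Smc3 shRNA1 arrays and 7.11 and 6.93 in the Smc3 shRNA2 arrays. Every depleted array lay below both Empty Vector arrays. The groups ran from Empty Vector through Smc3 shRNA2, Wapal shRNA1 and Wapal shRNA2 down to Smc3 shRNA1, and of neighbours in this order only the 2 Wapal groups overlapped. The log2 difference from Empty Vector was -1.43 ± 0.15 (SE, 4 arrays against 2) in Wapal depletion and -1.48 ± 0.13 in Smc3 depletion, 2.69-fold and 2.79-fold below the control. Both differences share the Empty Vector arrays. The Wapal and Smc3 arrays of Myc differed by 0.05 ± 0.12, and their ranges overlapped.

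Within each side of the array split Myc was lower too, which follows from every depleted array lying below both Empty Vector arrays. The sizes are given as a description. Wapal shRNA1 lay at -1.56 from Empty Vector replicate 1 and Wapal shRNA2 at -1.29 from Empty Vector replicate 2. Smc3 shRNA2 lay at -1.08 and Smc3 shRNA1 at -1.87 from the Empty Vector array of their sides. The 2 Empty Vector arrays themselves differed by -0.36 (replicate 2 minus replicate 1). Without Empty Vector replicate 1 the differences were -1.25 for Wapal and -1.30 for Smc3, and without replicate 2 they were -1.60 and -1.66. The Smc3 hairpins differed by -1.15 ± 0.15 (shRNA1 minus shRNA2, limma adjusted p = 0.00347), while the Wapal hairpins did not pass (0.10 ± 0.17, adjusted p = 0.83) although they left different amounts of Wapl.

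Mycn, the paralog best known from neural and early embryonic tissue, measured 10.30 and 10.43 in Empty Vector, 10.04 and 10.13 in the Wapal shRNA1 arrays and 10.47 and 10.40 in the Wapal shRNA2 arrays. Its Smc3 shRNA1 arrays read 11.05 and 11.02, and those of Smc3 shRNA2 read 10.62 and 10.45. All 4 Smc3 arrays lay above the control, and the Smc3 shRNA1 arrays stood highest. Mycn rose in Smc3 depletion by 0.42 ± 0.10 (adjusted p = 0.0374), whereas Wapal depletion lay at -0.11 ± 0.09 from the control. The depletions differed by -0.52 ± 0.07 (Wapal minus Smc3, adjusted p = 0.000958). The Smc3 hairpins differed too, by 0.50 ± 0.11 (adjusted p = 0.0277), and Smc3 shRNA2 alone lay 0.17 ± 0.11 above the control (adjusted p = 0.45). The rise against Empty Vector lost its call without either Smc3 shRNA1 array, either Smc3 shRNA2 array or Empty Vector replicate 1 (adjusted p from 0.0687 to 0.177), and with the side of the split as a term (0.0754). The other Mycn probe sets did not pass, at 0.17 ± 0.09 (adjusted p = 0.33) and 0.13 ± 0.11 (adjusted p = 0.55).

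Mycl, the third activating paralog, measured 6.73 and 6.95 in Empty Vector, 6.45 and 6.36 in the Wapal shRNA1 arrays and 6.43 and 6.52 in the Wapal shRNA2 arrays. It measured 7.26 and 7.14 in the Smc3 shRNA1 arrays and 6.35 and 6.23 in the Smc3 shRNA2 arrays, so the Smc3 groups lay on either side of the control. The hairpins differed by 0.91 ± 0.12 (adjusted p = 0.00388). Against Empty Vector, Smc3 shRNA2 was lower (-0.55 ± 0.12, adjusted p = 0.029), Smc3 shRNA1 did not pass (0.35 ± 0.12, adjusted p = 0.12), and their mean lay at -0.10 ± 0.10 (adjusted p = 0.66). All 4 Wapal arrays lay below the control, at -0.40 ± 0.10. The difference between the depletions (-0.30 ± 0.08, adjusted p = 0.0244) lost its call without 1 of 4 single arrays (Wapal shRNA1 replicate 2, Wapal shRNA2 replicate 1, Smc3 shRNA1 replicate 1 or Smc3 shRNA2 replicate 1, adjusted p from 0.0793 to 0.0902) and with the side as a term (0.204). The other 2 Mycl probe sets were dim, with means of 3.54 and 3.29, and lay at 0.18 ± 0.15 and 0.31 ± 0.11 in Wapal depletion, on the other side of zero.

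**Figure D1:**
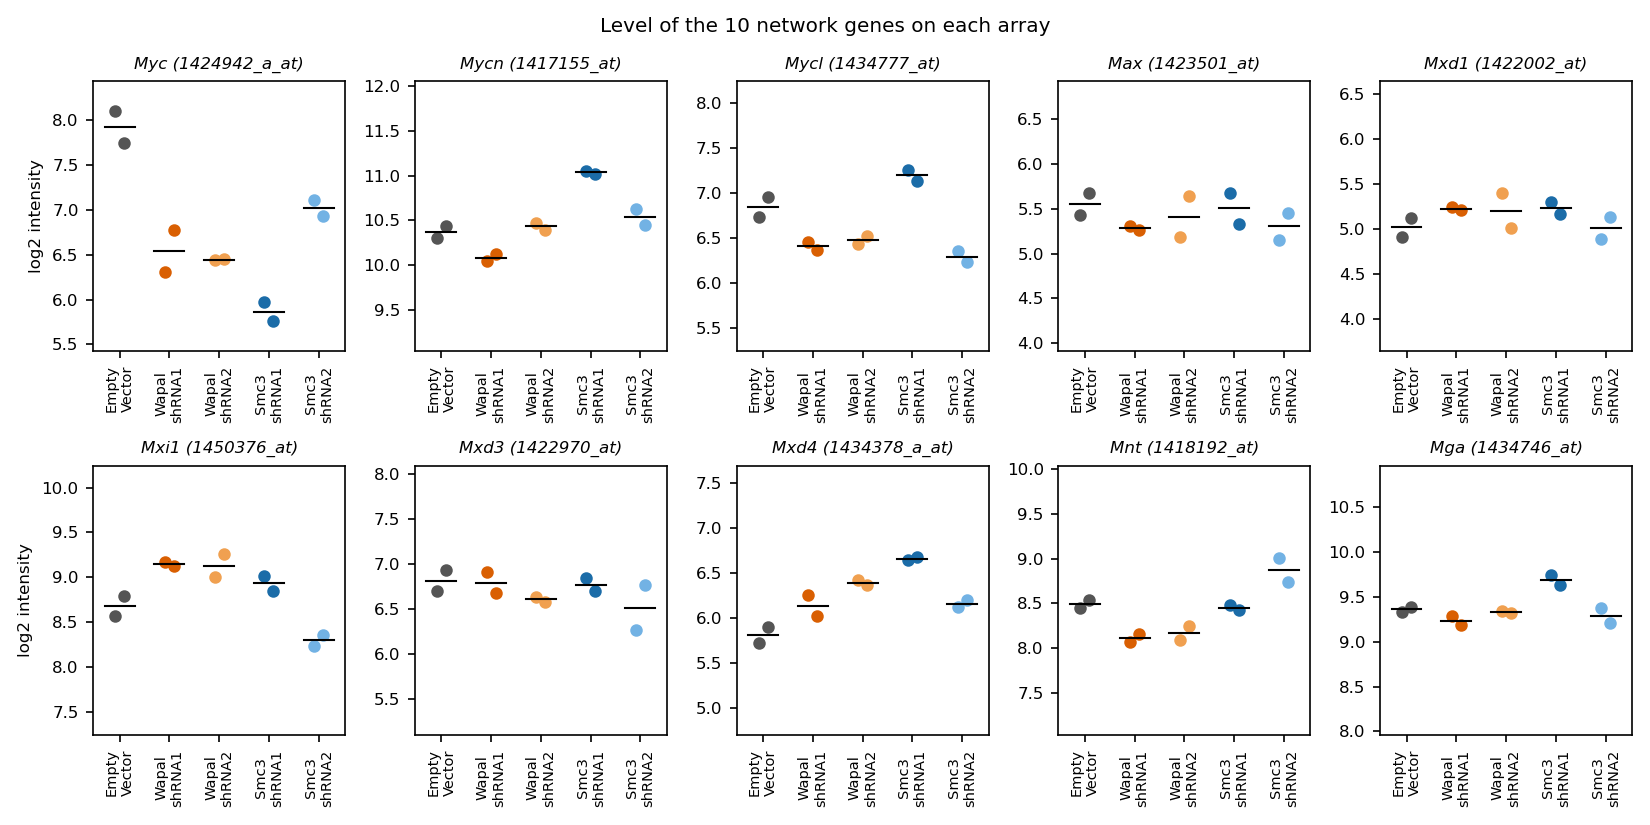
Log2 intensity of the brightest probe set of each of the 10 network genes on the 10 arrays, with points for arrays and bars for group means (n = 2 arrays); each panel has its own level on the y axis and the same height of 3 log2 units. Myc is highest in Empty Vector, at 8.10 and 7.74, and no depleted array reaches above 7.11, while Max and Mxd1 overlap between groups.

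Max, the partner that the other members share, is read by 1 dim probe set. It measured 5.43 and 5.68 in Empty Vector and between 5.15 and 5.68 in the 8 depleted arrays, so the groups overlapped. Neither Smc3 depletion (-0.15 ± 0.14, adjusted p = 0.60) nor the difference between the depletions (-0.06 ± 0.12, adjusted p = 0.80) passed. Wapal depletion lay at -0.21 ± 0.14 from the control.

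Among the Mxd repressors, Mxd4 was higher in all 8 depleted arrays and Mxi1 was higher in Wapal than in Smc3 depletion, while Mxd1 and Mxd3 did not pass on their brightest probe sets. Mxd4, a Max partner associated with cells leaving the cycle, measured 5.72 and 5.90 in Empty Vector, 6.25 and 6.02 in the Wapal shRNA1 arrays and 6.42 and 6.36 in the Wapal shRNA2 arrays. It measured 6.64 and 6.67 in the Smc3 shRNA1 arrays and 6.12 and 6.20 in the Smc3 shRNA2 arrays. Both Empty Vector arrays thus fell in the dim range under 6, and the mean over the 10 arrays was 6.23. The order of the groups was Smc3 shRNA1, Wapal shRNA2, Smc3 shRNA2, Wapal shRNA1 and Empty Vector, and only Smc3 shRNA2 and Wapal shRNA1 overlapped. Mxd4 rose in Smc3 depletion by 0.60 ± 0.10 (1.51-fold, adjusted p = 0.00838), and Wapal depletion lay 0.45 ± 0.11 above the control (1.37-fold). The Smc3 hairpins differed by 0.50 ± 0.11 (adjusted p = 0.0263). Within the sides the 4 hairpins lay between 0.42 and 0.76 above their own Empty Vector array. Without Empty Vector replicate 1 the Smc3 value was 0.51 and its adjusted p was 0.0511.

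The 3 other Mxd4 probe sets were dimmer and did not pass in Smc3 depletion. They lay at 0.36 ± 0.10 (adjusted p = 0.0743), 0.27 ± 0.10 (adjusted p = 0.16) and -0.03 ± 0.13 (adjusted p = 0.94). The last of them differed between the Smc3 hairpins, by 0.83 ± 0.14 (adjusted p = 0.0106). On the mean of all 4 probe sets the gene rose by 0.30 in Smc3 depletion (adjusted p = 0.036). 

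Mxi1, a repressor of the same class also known as Mxd2, measured 8.57 and 8.80 in Empty Vector, 9.18 and 9.13 in the Wapal shRNA1 arrays and 9.01 and 9.26 in the Wapal shRNA2 arrays. It measured 9.02 and 8.85 in the Smc3 shRNA1 arrays and 8.23 and 8.36 in the Smc3 shRNA2 arrays. The Wapal arrays were all above the control, and the Smc3 hairpins fell on either side of it. Wapal depletion lay 0.46 ± 0.11 above Empty Vector, the mean of the Smc3 groups lay at -0.07 ± 0.11 (adjusted p = 0.78), and the depletions differed by 0.53 ± 0.09 (adjusted p = 0.00244). The second Mxi1 probe set also differed between the depletions, by 0.36 ± 0.09 (adjusted p = 0.022). The Smc3 hairpins differed by 0.64 ± 0.12 (adjusted p = 0.016).

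Mxd1 and Mxd3, repressors linked with differentiation and with S phase, moved little. Mxd1 measured between 4.88 and 5.40 over the 10 arrays, and lay 0.20 ± 0.13 above the control in Wapal depletion and 0.10 ± 0.11 in Smc3 depletion (adjusted p = 0.69). Mxd3 measured between 6.26 and 6.93, and lay at -0.12 ± 0.11 and -0.17 ± 0.15 (adjusted p = 0.57). Of 6 probe sets for these genes 1 passed a test. A dim Mxd3 probe set was lower with Smc3 shRNA1 than with shRNA2 (-0.52 ± 0.11, adjusted p = 0.0214), while the brightest one lay at 0.26 ± 0.17 there (adjusted p = 0.41), so the probe sets differ in sign.

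Mnt and Mga, the large Max partners, were each lower in Wapal than in Smc3 depletion on at least 1 probe set. Mnt, a widely expressed antagonist of Myc, measured 8.45 and 8.54 in Empty Vector, 8.07 and 8.16 in the Wapal shRNA1 arrays and 8.09 and 8.25 in the Wapal shRNA2 arrays. It measured 8.48 and 8.43 in the Smc3 shRNA1 arrays and 9.0 and 8.74 in the Smc3 shRNA2 arrays. No Wapal array reached any Smc3 or Empty Vector array. The depletions differed by -0.52 ± 0.08 (adjusted p = 0.00168), with Wapal at -0.35 ± 0.10 from the control and Smc3 at 0.17 ± 0.10 (adjusted p = 0.40). A second, dim Mnt probe set did not pass between the depletions (-0.05 ± 0.10, adjusted p = 0.77).

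Mga measured 9.33 and 9.39 in Empty Vector, 9.28 and 9.18 with Wapal shRNA1, 9.34 and 9.32 with Wapal shRNA2, 9.74 and 9.64 in the Smc3 shRNA1 arrays and 9.38 and 9.20 in the Smc3 shRNA2 arrays. Only the Smc3 shRNA1 arrays stood clear of the rest. Its 5 probe sets spanned -0.31 to 0.31 in Wapal depletion and -0.25 to 0.22 in Smc3 depletion. The brightest did not pass between the depletions (-0.21 ± 0.07, adjusted p = 0.0727), and the second brightest did (-0.44 ± 0.09, adjusted p = 0.00744).

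**Figure D2:**
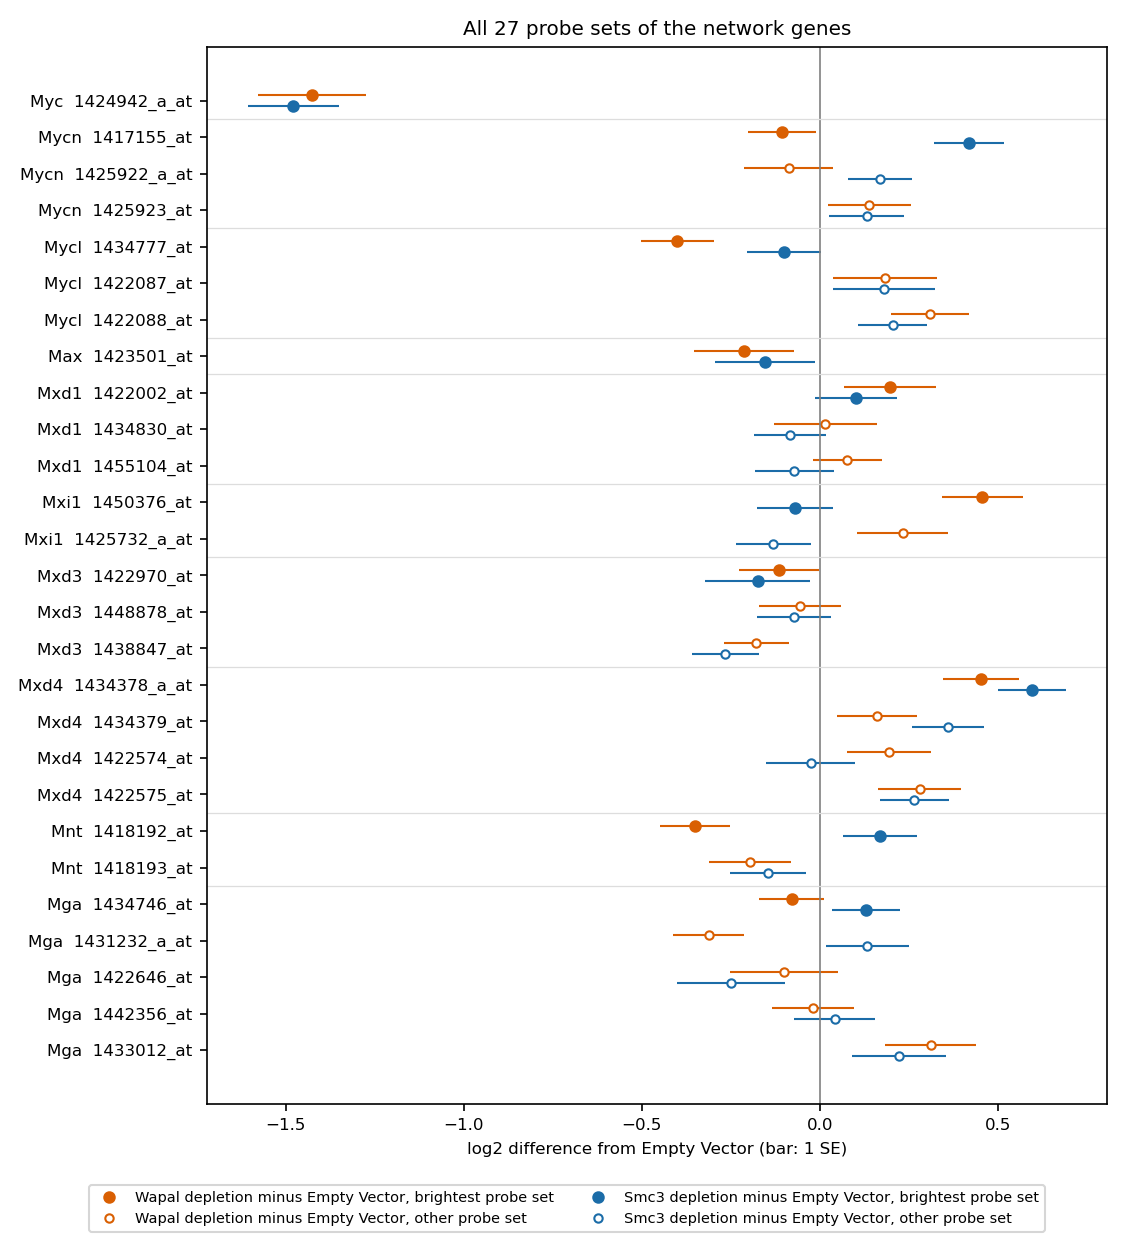
Log2 difference from Empty Vector of all 27 probe sets of the network genes, in orange for Wapal and blue for Smc3 depletion (4 arrays against 2, bars 1 SE); filled points are the brightest probe set of each gene and open points the others. Myc stands apart at -1.43 and -1.48, and probe sets of Mycl, Mxd4 and Mga spread around zero within a gene.

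Taken as a group, the 10 genes moved in both directions. In Wapal depletion against Empty Vector the adjusted p was under 0.05 for 2 of the 10, Myc lower and Mxd4 higher, against 7.56% of all 18193 genes (2.63% higher and 4.93% lower). Nothing is read from that count, because this contrast led to the family. In Smc3 depletion 2 of the 9 members other than Myc passed, Mycn and Mxd4, both upward, against 10.0% of all genes (6.08% higher and 3.94% lower). Between the depletions 4 of these 9 passed, with Mycn, Mycl and Mnt lower and Mxi1 higher in Wapal depletion, against 22.5% of all genes. Between the Wapal hairpins limma called 0 of 10 against 1.46% of all genes, with 1 member (Mycn) at an unadjusted p under 0.05 by limma and 1 by the methods' t-test, a plain test on each gene. Of all 45037 probe sets, 7520 and 6096 were under that unadjusted p between the Wapal hairpins by these tests. Between the Smc3 hairpins 5 of 10 passed, against 12.5% of all genes. These were Myc, lower with shRNA1, and Mycn, Mycl, Mxi1 and Mxd4, higher with shRNA1. The median difference over the members was -0.11 in Wapal and 0.02 in Smc3 depletion, with 0.01 over all genes in both, and 0.33 between the Smc3 hairpins.

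In Smc3 depletion neither Mycn nor Mxd4 passed without Empty Vector replicate 1. Between the Smc3 hairpins, Mycn, Mxi1 and Mxd4 did not pass when any 1 of the 4 Smc3 arrays was left out. Such a fit leaves a single array in one hairpin group, which is assumed to vary like the other groups.

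Genes known as targets of Myc were taken from lists. These and the other lists were chosen with earlier results of these data known, so their calls are no independent support for a lower Myc. Over all genes 2.63% rose and 4.93% fell with Wapal, and 6.08% rose and 3.94% fell with Smc3. Of the 13 genes known to be repressed by Myc, mostly inhibitors of the cell cycle and genes of growth arrest, 5 rose and 0 fell in Wapal depletion and 4 rose and 1 fell in Smc3 depletion. The list medians were 0.36 and 0.11. Cdkn1c, an inhibitor of cyclin-dependent kinases, rose by 0.78 ± 0.10 (adjusted p = 0.00895) with Wapal and by 0.94 ± 0.12 (adjusted p = 0.00348) with Smc3. Gadd45g, a growth arrest gene, rose by 0.66 ± 0.09 (adjusted p = 0.0103) and 1.24 ± 0.10 (adjusted p = 0.000445). Cdkn2b, an inhibitor of Cdk4 and Cdk6, rose by 1.19 ± 0.13 with Smc3 (adjusted p = 0.00169), and Gadd45a, a stress-induced relative of Gadd45g, fell by 0.57 ± 0.10 there (adjusted p = 0.0114). Gas1, a growth arrest gene, rose by 0.69 with Wapal. Ndrg1, a stress-responsive gene, rose by 1.18 ± 0.28 with Wapal (adjusted p = 0.0492), but only the Wapal shRNA2 arrays (9.21 and 9.55) lay above the control. The Wapal shRNA1 arrays (7.34 and 7.59) fell between the Empty Vector arrays, which themselves differed by 1.21. Cdkn1a, the p21 inhibitor, did not pass, at 0.12 (adjusted p = 0.66) and 0.07. Without Empty Vector replicate 1 the count of rises was 0 in Wapal and 3 in Smc3 depletion, and without replicate 2 it was 7 and 5.

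Genes known to be activated by Myc fell in part, beside 4.93% of all genes that fell with Wapal and 3.94% with Smc3. In the list for cell cycle and translation 3 of 13 fell and 0 rose in each depletion, with medians of -0.16 and -0.18. Ccnd2, which encodes cyclin D2, measured 7.48 and 7.45 in Empty Vector, 5.34 and 5.81 with Wapal shRNA1, 6.85 and 7.01 with Wapal shRNA2, 6.46 and 6.37 in the Smc3 shRNA1 arrays and 5.75 and 5.80 in the Smc3 shRNA2 arrays. All depleted arrays were below the control, and the hairpins of each gene were apart. Ccnd2 fell by 1.21 ± 0.14 (adjusted p = 0.00609) with Wapal and by 1.37 ± 0.09 (adjusted p = 0.000184) with Smc3. E2f2, an S phase transcription factor, fell by 0.47 and 0.51, Tert, the catalytic subunit of telomerase, fell by 0.66 with Wapal, and Cdca7 fell by 0.35 with Smc3.

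Of 18 metabolic targets, 5 fell and 0 rose with Wapal and 4 fell and 0 rose with Smc3, with medians of -0.14 and -0.05. With Wapal, Cad, which starts pyrimidine synthesis, fell by 0.59, Mthfd1l of one-carbon metabolism by 0.57, and Slc7a5, an amino acid transporter, by 0.48. Ppat, which starts purine synthesis, fell in both, by 0.42 and 0.43, and with Smc3 Umps, another pyrimidine enzyme, fell by 0.51, Srm of polyamine synthesis by 0.41 and Shmt1 by 0.37. Odc1, ornithine decarboxylase and a classical Myc target, did not pass, at -0.11 (adjusted p = 0.53) and -0.14. Of 16 nucleolar and ribosome biogenesis targets, 2 fell with Wapal (Ppan by 0.45 and Nolc1 by 0.42). Limma called 0 of the 16 with Smc3, where 7 were lower at an unadjusted p under 0.05 by limma and 6 by the methods' t-test. Over all 45037 probe sets, 9591 and 5485 were under that p with Smc3 in either direction. The list medians were -0.15 and -0.20. Ncl and Npm1, abundant nucleolar proteins, did not pass and lay between -0.13 and -0.03.

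**Figure D3:**
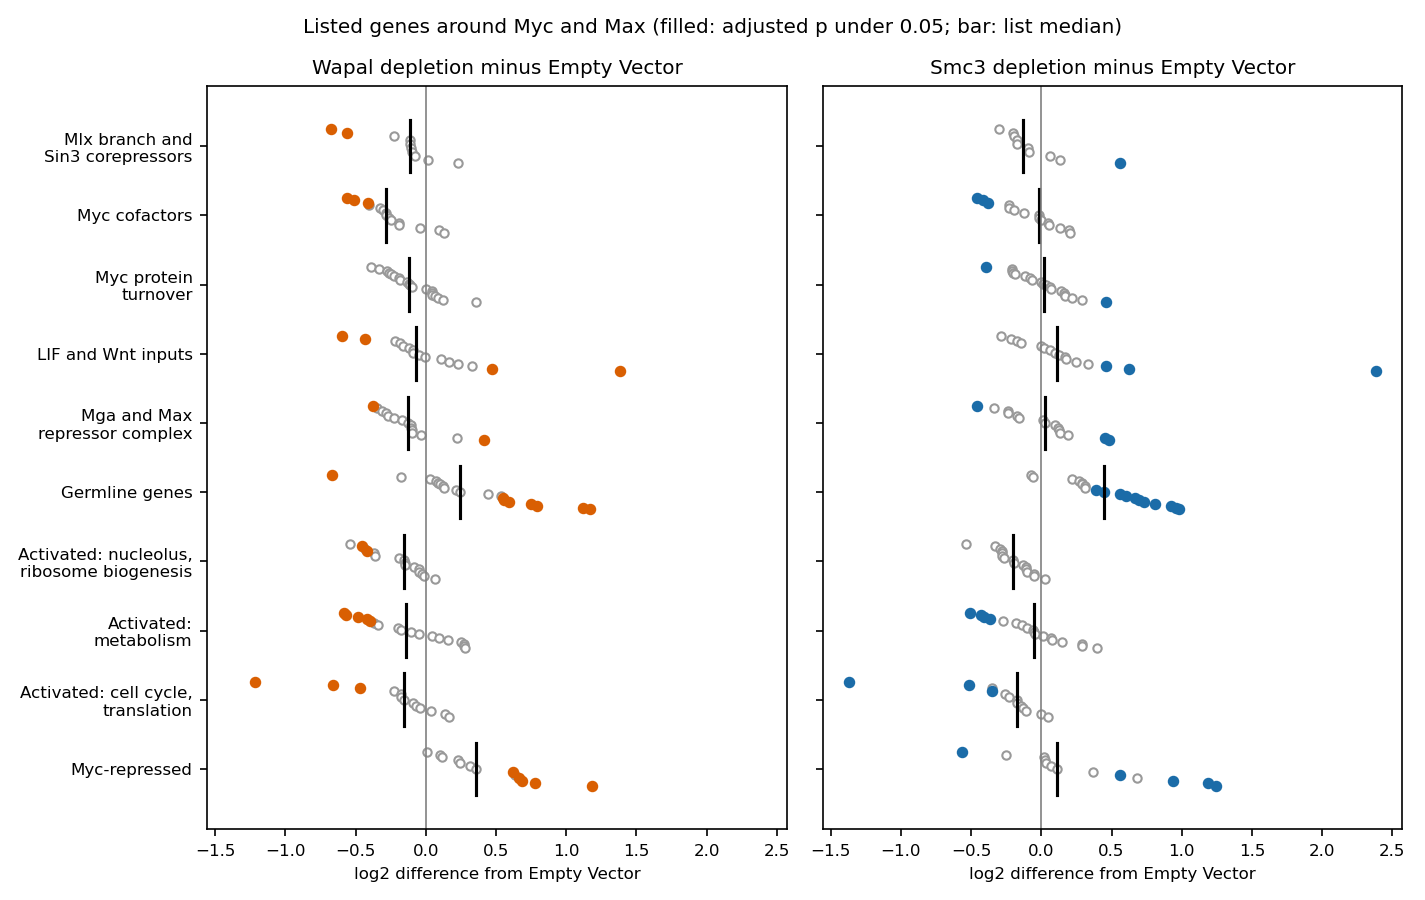
Log2 difference from Empty Vector of the genes of 10 lists around Myc and Max, in Wapal depletion (left) and Smc3 depletion (right); each point is a gene, filled where the adjusted p was under 0.05, and the black bar is the list median. Germline genes and Myc-repressed genes reach furthest right among the lists apart from Lef1 at 1.38 and 2.38, and Ccnd2 reaches furthest left at -1.21 and -1.37.

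Of the germline genes that Mga and Max are known to repress, some rose in each depletion, and many differed between hairpins. Of 19 measured, 7 rose and 1 fell (Stk31, named after its value was seen, by 0.67) with Wapal, and 11 rose and 0 fell with Smc3, with medians of 0.25 and 0.45. Over all genes 2.63% rose and 4.93% fell with Wapal, and 6.08% rose and 3.94% fell with Smc3. Between the Wapal hairpins 8 of the 19 passed in either direction, against 1.46% of all genes. Between the Smc3 hairpins 10 did, against 12.5% of all genes. Mael, a protein of the piRNA pathway, measured 8.29 and 8.45 in Empty Vector, 9.85 and 9.78 with Wapal shRNA1, 9.19 and 9.12 with Wapal shRNA2, 9.29 and 9.30 in the Smc3 shRNA1 arrays and 9.20 and 9.38 in the Smc3 shRNA2 arrays. No depleted array overlapped the control. Mael rose by 1.12 ± 0.10 (adjusted p = 0.00273) and 0.92 ± 0.10 (adjusted p = 0.00169). Sycp3, of the meiotic chromosome axis, rose by 1.17 with Wapal (adjusted p = 0.00995), and the mean of the Smc3 groups did not pass (0.31, adjusted p = 0.28). Its Smc3 hairpins were apart. The Smc3 shRNA1 arrays (8.54 and 8.43) lay above both Empty Vector arrays (7.38 and 7.86), and those of Smc3 shRNA2 (7.22 and 7.54) did not. Sycp1, of the synaptonemal complex, rose by 0.79 and Slc25a31, a germ cell nucleotide carrier, by 0.75 with Wapal. Against the Empty Vector array of its side, Wapal shRNA1 lay at 1.40 for Sycp1 and 1.20 for Slc25a31, and Wapal shRNA2 at 0.18 and 0.29. With Smc3, Tex101, a germ cell surface protein, rose by 0.98, Smc1b, the meiotic cohesin subunit, by 0.96 and Meioc, which acts in meiotic prophase, by 0.81. Tex101 was dim in Empty Vector, at 5.31 and 5.11. Without Empty Vector replicate 1, 4 genes rose with Wapal and 6 with Smc3, and without replicate 2, 4 and 10 did. With the side as a term the counts were 4 and 6. In this list 11 of the 18 genes with a promoter window held the E-box, against 8.09% of all genes. The share was 41.7% for activated cell cycle and translation targets, 33.3% for Myc-repressed genes and 7.14% for cofactors. Since the germline list was made of known targets of Mga and Max, nothing is read from its share.

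The partners of Mga in its repressor complex mostly did not pass. Of 15 measured, 1 rose and 1 fell with Wapal and 2 rose and 1 fell with Smc3. Over all genes 7.56% were called with Wapal and 10.0% with Smc3, so nothing is read from these few calls. Yaf2, a subunit of the complex, rose in both, by 0.42 and 0.48, E2f6, its E2F repressor, rose by 0.45 with Smc3, and Ehmt1, a histone H3 lysine methyltransferase, fell by 0.38 with Wapal. Wdr5, which the lists hold both here and among the cofactors of Myc, fell by 0.46 with Smc3. Pcgf6 and L3mbtl2, subunits that define the complex, did not pass, at -0.22 and -0.31 with Wapal and 0.02 and 0.12 with Smc3. Without Empty Vector replicate 1 these counts were 0 in both depletions.

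Of 15 cofactors of Myc, 3 fell and 0 rose in each depletion, and they were other genes in each. Over all genes 4.93% fell with Wapal and 3.94% with Smc3. Hcfc1, a host cell factor that binds Myc, fell by 0.56, Kat2a, a histone acetyltransferase, by 0.51 and Trrap, the scaffold of acetyltransferase complexes, by 0.41 with Wapal. Wdr5, Ruvbl1 (0.41) and Actl6a (0.38), subunits of chromatin complexes, fell with Smc3. In the parallel branch of Mlx, a Max-like partner, and the Sin3 corepressors, 2 of 10 fell with Wapal and 1 rose with Smc3. Mlx fell by 0.68 ± 0.10 with Wapal (adjusted p = 0.0104). Wapal shRNA1 lay at -1.26 from the Empty Vector array of its side and Wapal shRNA2 at -0.10. Mlxip, a glucose-sensing partner of Mlx, fell by 0.56 with Wapal, and Mlxipl, its relative in liver, rose by 0.56 with Smc3. Mlxipl was dim, with a mean of 5.66.

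Genes of Myc protein turnover did not pass in Wapal depletion, where limma called 0 of 20. At an unadjusted p under 0.05 there were 6 by limma and 5 by the methods' t-test, against 10468 and 7056 of all 45037 probe sets. In Smc3 depletion 1 rose (Usp28, a deubiquitinase of Myc, by 0.46) and 1 fell (Ppp2r5a, a phosphatase subunit, by 0.39). These 2 of 20 match the 10.0% called over all genes. For Usp28 only Smc3 shRNA1 (9.81 and 9.76) lay above the control, and Smc3 shRNA2 (8.84 and 8.91) fell between the Empty Vector arrays (8.80 and 8.93). Fbxw7, the ligase subunit that marks Myc for destruction, did not pass, at -0.28 and 0.17. Of 16 genes of LIF and Wnt signalling, which feed into Myc, 2 rose and 2 fell with Wapal and 3 rose and 0 fell with Smc3. Over all genes the shares that rose and fell were 2.63% and 4.93% with Wapal, and 6.08% and 3.94% with Smc3. Lef1, a Wnt transcription factor, rose by 1.38 ± 0.11 (adjusted p = 0.00213) and 2.38 ± 0.09 (adjusted p = 3.26e-05). Socs3, a feedback inhibitor of LIF signalling, rose by 0.47 and 0.46, although the Smc3 shRNA2 arrays (10.93 and 11.10) lay between the Empty Vector arrays (10.86 and 11.18) and only Smc3 shRNA1 (11.95 and 11.97) stood above them. Jak2, a kinase of LIF signalling, rose by 0.62 with Smc3. Tcf7l2, a Wnt transcription factor, and Lifr, the LIF receptor, fell by 0.59 and 0.44 with Wapal. Tcf7l2 was dim, at or under 5.43 on every array. Stat3 and Ctnnb1 (beta-catenin), the effectors of both pathways, did not pass, at -0.19 and -0.01 with Wapal and 0.33 and 0.10 with Smc3.

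All 28 listed genes named for a call in Wapal depletion and all 26 in Smc3 depletion had the same sign within both sides of the array split. The values of the sides average to the tested difference, and these genes were named because they passed with large changes. Agreement in sign was therefore favoured in advance and is no separate support. Many calls were close to the threshold. Of the 28, 6 kept theirs when any 1 array was left out (Sycp3, Mael, Sycp1, Slc25a31, Ccnd2 and Lef1), and of the 26, 9 did (Mlxipl, Tex101, Mael, Meioc, Ccnd2, Gadd45g, Cdkn2b, Cdkn1c and Lef1). Without a given array, 8 to 12 of the 28 and 10 to 18 of the 26 kept their calls. The fewest were kept without Empty Vector replicate 1, and for Smc3 equally few without Smc3 shRNA2 replicate 2. In the 3 lists of activated targets and among the cofactors, leaving out any 1 array left between 0 and 2 genes that fell in each list.

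Other measures moved with these results, and their part was not tested. Among 12 ESC markers 2 fell (Esrrb and Klf4) and 1 rose (Fgf4) with Wapal, and 4 fell with Smc3 (Nanog, Zfp42, Esrrb and Klf4). The summed intensity of the 12 ran from 70340 to 74463 in Empty Vector, from 68414 to 76698 in the Wapal arrays and from 62878 to 70033 in the Smc3 arrays. Of 10 fibroblast markers 1 rose (Dcn) and 2 fell (Thy1 and Pdgfrb) with Wapal and 2 rose (Dcn and Pdgfrb) and 1 fell (Thy1) with Smc3, with sums between 341 and 393 in Empty Vector, 267 and 327 with Wapal and 285 and 356 with Smc3. Their 4 collagens (Col1a1, Col1a2, Col3a1 and Col6a3) stayed at or under 5.48 on every array. Limma called 0 of 11 lineage markers in both depletions, with 1 and 0 at an unadjusted p under 0.05 by limma and 2 and 0 by the methods' t-test, and their sums ran from 359 to 407, 388 to 434 and 362 to 391. Among 13 cell cycle genes limma called 0 with Wapal, with 2 at an unadjusted p under 0.05 by limma and 2 by the methods' t-test, and 1 fell with Smc3 (Ccne1, cyclin E1, by 0.50). Over all genes limma called 7.56% with Wapal and 10.0% with Smc3. Of all 45037 probe sets, 10468 with Wapal and 9591 with Smc3 had an unadjusted p under 0.05 by limma. By the methods' t-test these were 7056 and 5485. Fewer expressing cells and less RNA per cell cannot be told apart in these bulk samples.

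The 3 nearest measured genes on each side of every member were followed too, by their order in RefSeq. Of these 60 genes, 1 rose and 4 fell with Wapal and 3 rose and 2 fell with Smc3, 5 in each, which is near the 7.56% and 10.0% called over all genes. The 6 around Myc were 4930402D18Rik, Lratd2, 4933412E24Rik, Pvt1, Macroh2a3 and Gm20740, and they did not pass in either depletion, with adjusted p from 0.20 to 0.92. Pvt1, the long noncoding RNA gene next to Myc, measured between 7.52 and 8.54 over the arrays and lay at -0.17 ± 0.19 (adjusted p = 0.63) with Wapal and 0.16 ± 0.21 (adjusted p = 0.73) with Smc3. Cyria, near Mycn, fell in both, by 1.68 ± 0.09 (adjusted p = 0.000675) and 1.08 ± 0.12 (adjusted p = 0.00227). Near Mxi1, 4833407H14Rik rose in both, by 0.74 and 0.89. Near Mga, Tyro3 and Rpap1 fell by 0.57 and 0.47 with Wapal, and near Mnt, Cluh fell by 0.44 with Wapal and Mettl16 by 0.39 with Smc3. Ppt1 near Mycl and Gphn near Max rose by 0.42 and 0.58 with Smc3.

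The genes whose pattern was most like that of Myc were ranked by Pearson correlation over the 10 arrays, among 1898 genes with a mean of at least 6 and an SD of at least 0.3. The points share 5 groups and the array split, so these values are a description. The 6 highest were Ipmk (0.97), Enc1 (0.97), Dusp27 (0.96), Zdhhc3 (0.95), Sned1 (0.95) and F2r (0.95). Their Spearman correlations lay between 0.89 and 0.96. Each was highest in the 2 Empty Vector arrays, with Ipmk at 9.59 and 9.64 there and between 8.54 and 9.25 elsewhere. Of the members in the ranking, Mxd4 ran opposite to Myc at -0.95, and Mxi1, Mycn and Mycl stood at -0.50, -0.46 and -0.23.

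**Figure D4:**
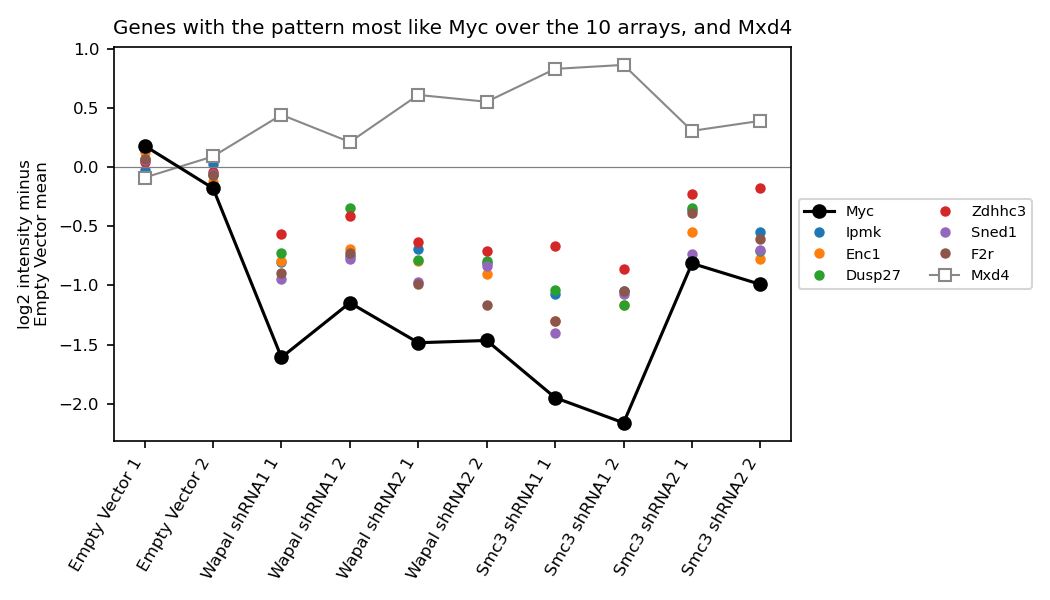
Log2 intensity relative to the Empty Vector mean on each of the 10 arrays, for Myc (black line), the 6 genes with the highest Pearson correlation to it (coloured points) and Mxd4 (open squares). The lowest value of Myc and of each of the 6 genes is in a Smc3 shRNA1 array, and Mxd4 runs the other way, with a correlation of -0.95 to Myc.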

How the data were processed

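RNA from 10 CJ9 ESC samples was measured on Affymetrix mouse genome expression arrays, 2 for each of 5 groups. The deposited values are linear intensity, which the authors obtained with RMA per the submitters' processing notes (version not given in the sources used here), so depth is not defined and the number of arrays limits the precision. The median intensity of an array lay between 38.6 and 39.7. Of 45101 probe sets, 64 controls were dropped, and 45037 were tested. In the platform annotation 34945 had 1 symbol, 932 several and 9160 none.

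Log2 values were fitted with limma 3.58.1 in R 4.3.3 (lmFit, eBayes), with 1 mean per group and depletions as the mean of both hairpins. Comparisons with Empty Vector and between the hairpins of a gene used the 6 arrays of that depletion and Empty Vector, and the comparison between depletions used all 10, so that Empty Vector arrays entered every estimate of the spread. P-values were two-sided and adjusted by Benjamini-Hochberg over 45037 probe sets, with a threshold of 0.05, after the procedure had been tested on simulated data. Alternatives were quantile normalization, an offset of 16, leaving out dim probe sets (mean log2 under 6), all arrays in 1 model, a replicate block, the side of the split, the methods' t-test, each array left out, the mean of all probe sets of a gene, and exchanged labels for 2 Wapal arrays. For a depletion the t-test took the arrays of both hairpins as 1 group. Differences between hairpins therefore entered its spread, unlike that of the main limma fit.

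The members, the 14 gene lists and the split were chosen with earlier results of these data known. Named were all members, at most 4 called genes per list and comparison with the largest change, Ncl, Npm1, Odc1, Cdkn1a, Mlx, Pcgf6, L3mbtl2, Fbxw7, Stat3 and Ctnnb1, called neighbours of members and all of Myc's, and the 6 genes most like Myc. Of 210 listed symbols 197 were measured. Called markers and cell cycle genes are named beyond that rule. Levels were compared within probe sets only. Promoter windows and gene order came from RefSeq tables of GRCm38.p6. The authors' own comparisons were not used.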

Additional observations from a re-analysis of the deposited data

Results flagged for a closer look

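Several results differed between the depletions or between hairpins when that difference itself was tested with limma (adjusted p under 0.05). None of the results below was weighed for a cause.

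Between the Smc3 hairpins (shRNA1 minus shRNA2, log2, 2 arrays against 2), the difference was -1.15 for Myc, 0.50 for Mycn, 0.91 for Mycl, 0.64 for Mxi1 and 0.50 for Mxd4. This comparison runs along the array split and cannot be told apart from it.

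Between the depletions (Wapal minus Smc3, log2, 4 arrays against 4), the members that differed were Mycn (-0.52), Mycl (-0.30), Mxi1 (0.53) and Mnt (-0.52). This comparison runs along the separate GEO blocks of samples and cannot be told apart from them. Among the Mlx branch and the cofactors, the differences were -0.58 for Mlx, -0.62 for Mlxip, -0.33 for Mlxipl, -0.56 for Hcfc1 and -0.61 for Trrap. In the Mga complex they were -0.25 for Pcgf6, -0.43 for L3mbtl2, -0.57 for Ehmt1 and -0.23 for E2f6. Among germline genes Sycp3 (0.86) and Sycp1 (0.40) were higher in Wapal depletion, whereas Tex101 (-0.45), Smc1b (-0.52) and Meioc (-0.99) were lower. Of these, Sycp3 and Meioc did not overlap between the depletions, and the others did. Sycp1 was lower with Wapal shRNA2 (6.15 and 6.22) than with Smc3 shRNA2 (6.67 and 6.73). Tex101 was higher with Wapal shRNA1 (6.49 and 6.35) than with Smc3 shRNA1 (5.74 and 5.92). Among activated targets the differences were -0.53 for Cad, -0.58 for Mthfd1l, -0.38 for Slc7a5 and -0.40 for Tert. Among repressed targets they were 0.32 for Gas1, 0.57 for Gadd45a, -0.58 for Gadd45g and -0.55 for Cdkn2b. In turnover and signalling they were -0.44 for Fbxw7, -0.52 for Stat3, -1.0 for Lef1, -0.27 for Lifr and -0.30 for Jak2.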

How the results depend on the processing

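In Wapal depletion against Empty Vector, 2 members had an adjusted p under 0.05, and these counts support nothing, since the contrast led to the family. The count was 5 with the offset of 16, 5 without dim probe sets, 4 with all 10 arrays in 1 model, 4 with the side as a term, 1 on the mean of all probe sets, 0 by the methods' t-test after adjustment and 5 by its unadjusted p, and 1 (from 1 to 1) with any 1 array left out. Calls over all 45037 probe sets moved too, from 937 higher and 1724 lower to 1136 and 2497 with the offset. Without dim probe sets they were 1049 and 2599 of 18042, and by the methods' t-test after adjustment 0 and 3. Myc ranged from -1.60 to -1.25 with 1 array left out, and Mycl, at -0.40, turned to 0.031 on the mean of its probe sets. In Smc3 depletion the count was 3 (Myc, Mycn and Mxd4), against 10.0% of all genes. Nothing is read from the call of Myc in these counts, since both contrasts share the Empty Vector arrays. The count became 0 by the t-test and 1, a lower member, by its unadjusted p. Myc there was -1.31 with the offset and from -1.66 to -1.30 with 1 array left out. Between the depletions the count of 4 became 0 by the t-test and 3 by its unadjusted p. Between the Wapal hairpins the count of 0 became 1 by its unadjusted p and stayed at 0 with the exchanged labels. Between the Smc3 hairpins the count of 5 became 0 by the t-test, 5 by its unadjusted p and 3 on the mean of all probe sets, and ranged from 2 to 6 with 1 array left out. With the replicate number as a block (replicate block), the count in Wapal depletion was 1 and that in Smc3 depletion 2, where Mycn had an adjusted p of 0.057. The numbers do not pair the arrays, since deviations of same-numbered arrays correlated between -0.16 and 0.057 over group pairs. The t-test's unadjusted p was under 0.05 for 7056 of 45037 probe sets in Wapal depletion, 5485 in Smc3 depletion and 8845 between the depletions. Between hairpins it was so for 6096 with Wapal and 8283 with Smc3. Where a count or value moved, the cause was not tested. Brightness limits Max, Mxd1, the control level of Mxd4 and the dim probe sets, and 2 arrays a group limit every test.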
